A study of Mus musculus with 9 samples.

Results

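The clustered protocadherins are 57 protein-coding genes of the mouse hippocampus data, picked by symbol: an alpha, beta or gamma protocadherin (Pcdh) name that ends in a number, out of 54532 genes listed. The alpha cluster held 14 of them, the beta cluster 22 and the gamma cluster 21. Pcdhgb8 also carried a matching symbol but was annotated as a polymorphic pseudogene, so it was not counted. All 57 genes lay on the + strand of chromosome 18 of GRCm38 (mm10), the alpha genes between 36930184 and 37187661, the beta genes between 37264938 and 37524479 and the gamma genes between 37661793 and 37841873. No sequence of these genes is shown here.

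Clustered protocadherins are cell surface adhesion proteins that bind an identical set of proteins on the opposing membrane, and each neuron uses its own small combination of them. In the alpha and gamma clusters every gene has its own large first exon with its own promoter, which is spliced to constant exons that encode a common cytoplasmic end, whereas each beta gene is a single exon. Promoter choice depends on CTCF, cohesin and DNA methylation, and the proteins are known for dendrite self-avoidance and axon wiring. The last genes of the alpha and gamma clusters, the C-type genes Pcdhac1, Pcdhac2, Pcdhgc3, Pcdhgc4 and Pcdhgc5, are used more uniformly across neurons than the others.

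Total RNA of the hippocampus was sequenced in 9 libraries, 3 for each of 3 groups, all from wild-type C57BL/6 mice labelled male and bought at 6 to 8 weeks of age (2 of the Bet+HMD samples carry the strain names C57BL/7 and C57BL/8). Con mice ate a standard diet and HMD mice a diet high in methionine for 8 weeks. Bet+HMD mice had the methionine diet for 8 weeks and then 2.5% (w/v) betaine in their drinking water for 2 weeks, and it is not clear whether the diet went on in that time. The study's text describes female mice. Every library here held 1170 to 1687 reads of the Y-linked Ddx3y and at most 14 of Xist. Whether the 3 samples of a group were separate animals is not stated, so p-values measure the spread between these samples, which may be technical.

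The libraries held 16031464 to 18291952 reads assigned to genes. Hippocampal marker genes (8, among them Prox1 and Zbtb20) summed to 157 to 210 FPKM (fragments per kilobase of gene per 1000000 fragments) and none was at 0 in a whole group. Markers of the thalamus summed to 26.4 to 41.2 FPKM in Con, 45.4 to 94.9 in HMD and 26.7 to 28.1 in Bet+HMD, and 5 of 7 did not overlap between HMD and Con (10.2% of all genes did not). Choroid plexus markers ran from 770.1 to 3204 FPKM within Con alone. The Bet+HMD libraries stood apart from the rest on the first principal component of 16643 genes (58.7% of the variance), held 1.40 to 1.45% of reads in lincRNA genes against 0.476 to 0.560% elsewhere, and were present only in the later of 2 tables. Processing batch and betaine therefore cannot be told apart in either comparison that uses them, and the part of the marker differences in the results below was not tested. Con replicate 2 and HMD replicate 2 had the fewest genes with a read (20816 and 20960, against 22003 to 23272 in the other Con and HMD libraries).

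The exons of the members decided what could be counted. Each alpha gene shares 2860 to 2864 exonic bases with other alpha genes and each gamma gene 2116 to 3157 with other gamma genes, chiefly the constant exons, while the beta genes share none except 455 bases between Pcdhb21 and Pcdhb22. Across the genome, 33 of 34 protein-coding genes (97.1%) whose sole bases were free on their own strand alone had a mean of at most 3 reads, as had 132 of 133 (99.2%) with no sole base, against 28.2% of 20585 genes with sole bases on either strand. The deposited values thus behave as if reads were counted without strand and reads at shared positions were left out. An alpha or gamma value is then a count of the gene's own first exon, divided in FPKM by a length that includes the uncounted constant exons.

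**Figure D1:**
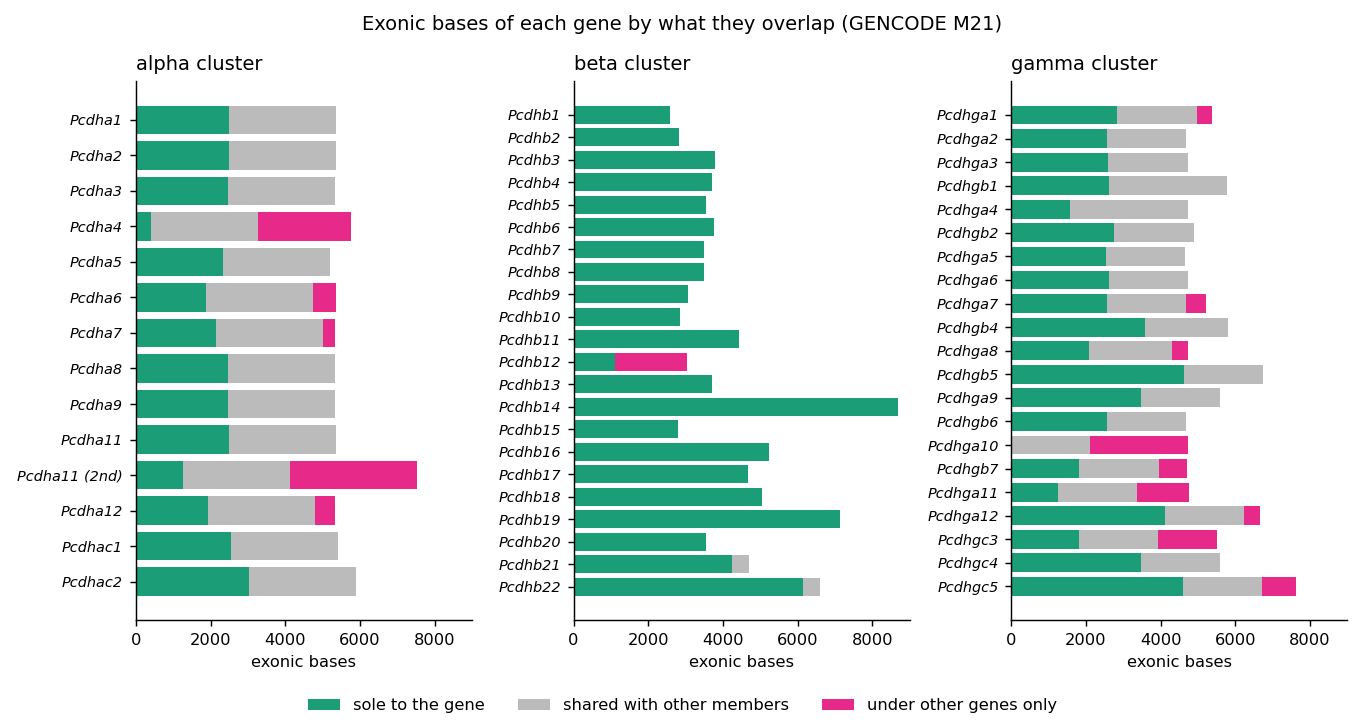
Horizontal bars give the exonic bases of each member, split into bases sole to the gene on either strand (green), shared with other members (grey) and lying under other genes only (pink), with 1 panel per cluster and genes in chromosomal order. Pcdha4 has 404 sole bases of 5768 and Pcdhga10 has 0 of 4732, while the beta genes are almost wholly sole.

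For this reason levels are compared between members as reads per kilobase of sole exon per 1000000 assigned reads, here called the sole-exon level, and between groups as FPKM, where the length cancels. In all, 15 members lose bases to overlapping genes that are no member. Among them, Pcdha4, Pcdha7 and Pcdha6 lose bases to the read-through genes Gm42416, Gm37388 and Gm37013, and Pcdha12, Pcdhb12, Pcdhga11 and Pcdhgc3 to genes on the opposite strand. The sole exon left was 404 bases in Pcdha4, 1256 in Pcdhga11 and 1821 in Pcdhgc3. Reads of the parts removed cannot be told from those of the neighbours.

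At least 1 read was present in every library for 53 of the 57 genes. The mean sole-exon level was 1 or more in 9 of 14 alpha, 20 of 22 beta and 20 of 20 gamma genes with a sole exon. Expression was low for single members: their median sole-exon level was 1.99, against 5.29 for the 14312 protein-coding genes with a mean of at least 10 reads and a sole exon. Of the 56 members 6 exceeded that value, Pcdhgc3, Pcdhgc5, Pcdhga11, Pcdhac2, Pcdhga3 and Pcdhgb6. By cluster, the median member reached 1.19 in the alpha cluster, 1.68 in the beta cluster and 3.90 in the gamma cluster. As in any bulk sample, fewer cells that use a promoter and less RNA per cell cannot be told apart.

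**Figure D2:**
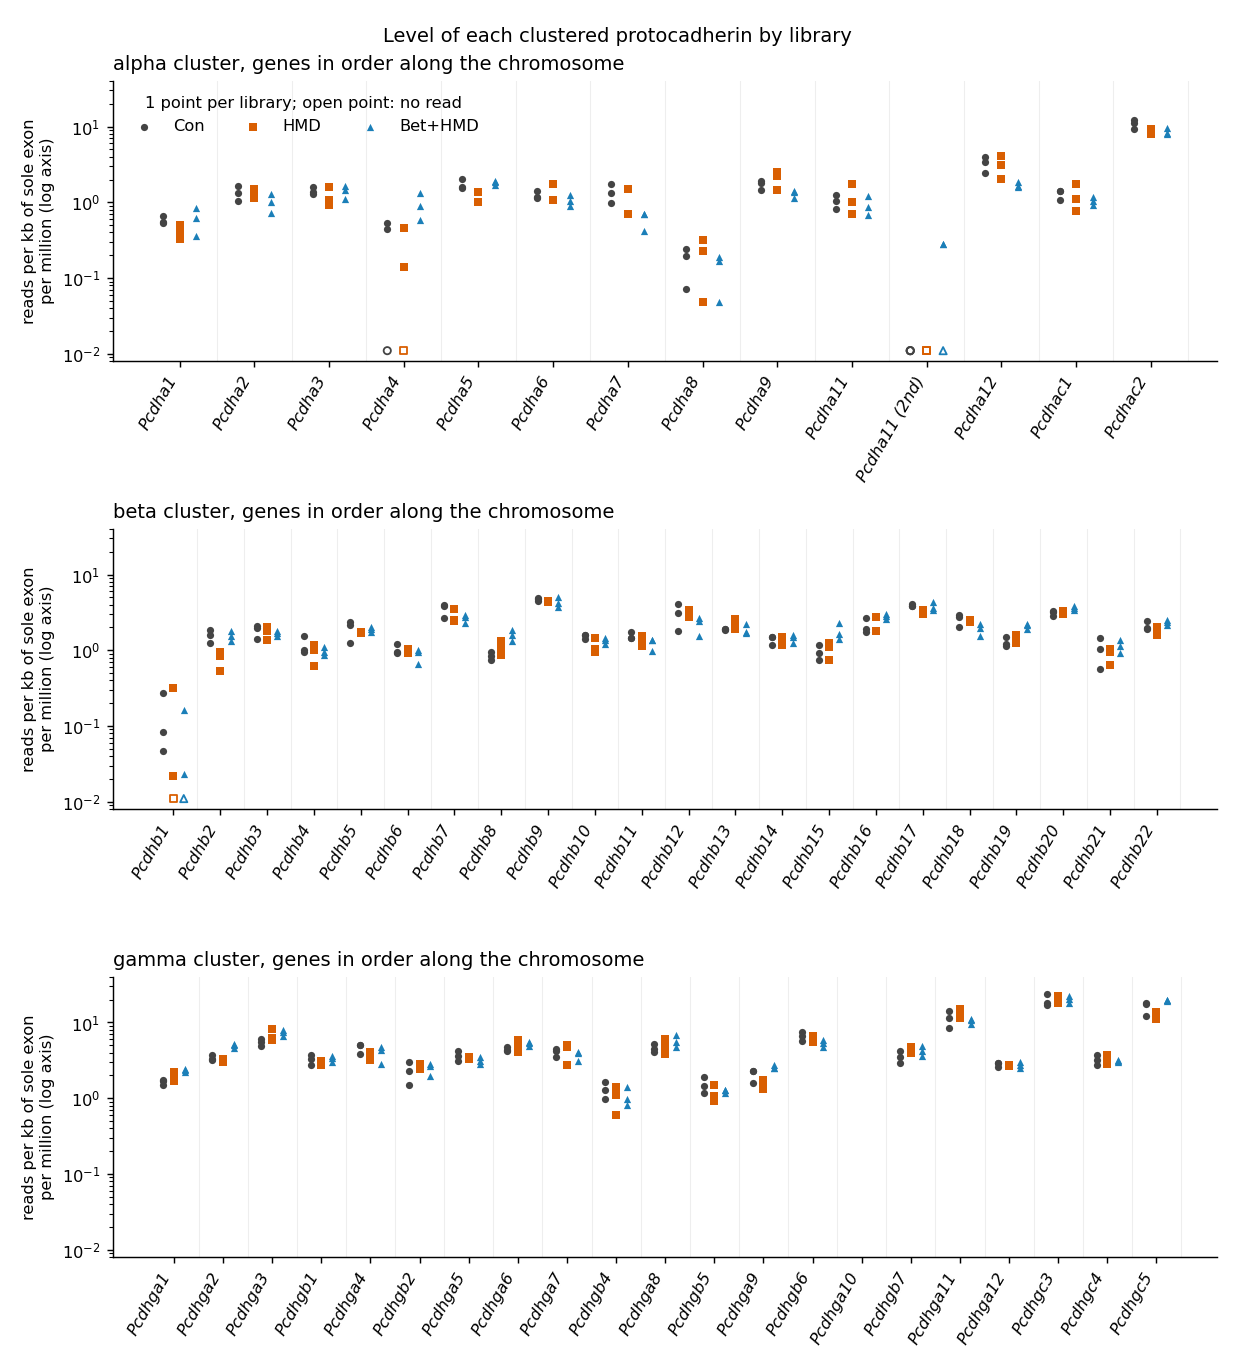
Sole-exon level of each member in each library (log axis, reads per kilobase of sole exon per 1000000 assigned reads) for Con (circles), HMD (squares) and Bet+HMD (triangles), with genes in chromosomal order. Open points have no read, Pcdhga10 has no sole exon and no point, and Pcdhac2, Pcdhgc3 and Pcdhgc5 stand highest at the ends of their clusters.

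Across the 9 libraries the highest sole-exon level was that of Pcdhgc3, a C-type gamma gene required for dendrite growth, at 19.6 ± 3.78 (SD, n = 3) in Con, 20.2 ± 1.89 in HMD and 20.3 ± 1.97 in Bet+HMD. Pcdhgc5, the last gamma gene, followed with 15.9 ± 3.09 in Con, 12.6 ± 1.23 in HMD and 19.5 ± 0.37 in Bet+HMD. The ranges of these 2 genes overlapped within Con and within Bet+HMD. Their order rests on the 1559 bases of Pcdhgc3 that lie under the antisense gene BC037039 and are left out of its sole exon, and in deposited FPKM it was the reverse (means over 9 libraries of 9.54 for Pcdhgc5 and 6.59 for Pcdhgc3). Pcdhga11 was next at 11.4 ± 2.86 in Con but counts only 1256 sole bases, and Pcdhac2, the C-type alpha gene that serotonergic axons need for tiling, had 10.98 ± 1.46. Those last 2 overlapped in Con, whereas every Pcdhga11 value lay above every Pcdhac2 value in HMD (11.3 to 15.0 against 7.88 to 9.21) and, by a narrow margin, in Bet+HMD (9.635 to 11.1 against 8.03 to 9.629).

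The C-type genes were not alike among themselves. Pcdhgc4, the C-type gene needed for survival of cortical interneurons, had a sole-exon level of 3.22 ± 0.48 in Con, and Pcdhac1 had 1.31 ± 0.20, ranks 17 and 44 of the 56 members with a sole exon. In FPKM Pcdhac1 read 0.520, 0.706 and 0.658 in Con, 0.531, 0.855 and 0.361 in HMD, and 0.414, 0.522 and 0.466 in Bet+HMD. These values overlapped in all 3 comparisons. Together the 5 C-type genes gave 157 ± 22.1 reads per 1000000 assigned reads (RPM) in Con, 135 ± 0.923 in HMD and 166 ± 3.38 in Bet+HMD. Of these, Pcdhgc5 alone gave 73.1 ± 14.2 RPM in Con, 57.9 ± 5.66 in HMD and 89.7 ± 1.68 in Bet+HMD. The higher sum in Bet+HMD than in HMD thus rests on that gene.

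Outside the C-types, the alpha cluster was led by Pcdha12 (sole-exon level 3.27 ± 0.78 in Con) and Pcdha9 (1.73 ± 0.23), the beta cluster by Pcdhb9 (4.71 ± 0.25) and Pcdhb17 (3.92 ± 0.18), and the gamma cluster, after Pcdhga11, by Pcdhgb6 (6.55 ± 0.86) and Pcdhga3 (5.52 ± 0.55). Pcdhac2 alone made 41.4 ± 2.57% of the summed sole-exon level of its cluster in Con. The 3 highest genes, taken in each library separately, made 60.95% of the alpha, 44.5% of the gamma and 28.8% of the beta sum there. The top 3 share was thus lowest in the beta cluster, which has the most genes (22, against 14 alpha and 21 gamma) and no C-type gene. In Con the C-type genes Pcdhgc3 and Pcdhgc5 made 18.5 and 15.1% of the gamma sum. Whether the clusters differ in evenness apart from gene number and C-type genes was not tested. The top 3 shares were 59.98, 43.8 and 27.8% in HMD and 56.9, 44.6 and 27.2% in Bet+HMD, but the genes behind them could differ. Pcdha12 made 12.3 ± 2.11% of the alpha sum in Con, 13.2 ± 3.22% in HMD and 7.86 ± 0.526% in Bet+HMD. In Bet+HMD Pcdha5 made 8.52 ± 0.523%.

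At the low end, the second gene that carries the symbol Pcdha11 (ENSMUSG00000102206) had no read in any Con or HMD library and up to 6 in Bet+HMD. Pcdha8 had 2 to 14 reads, Pcdhb1 0 to 13, Pcdha4 0 to 9 and Pcdhga10 0 to 3. A gene with 3 reads or fewer in each library of a group was taken to lie at the floor, which covers counting error only: 2 members did in Con, 3 in HMD and 1 in Bet+HMD. These 5 genes did not reach a mean of 10 reads and were not tested, which left 52 members (11 alpha, 21 beta, 20 gamma).

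Replicates differed by more than counting alone gives. The median coefficient of variation of a tested member was 16.8% in Con, 18.2% in HMD and 11.7% in Bet+HMD, where counting noise alone would give 9.09 to 9.29%. On the second principal component of the 52 members (18.3% of the variance), Con replicate 2 and HMD replicate 2 scored 0.50 and 0.51 and the other 4 Con and HMD libraries -0.50 to -0.10. The first component (30.9%) put the Bet+HMD libraries at 0.37 to 0.50 and all the others below 0.

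Summed over its genes, the alpha cluster gave 69.9, 62.1 and 71.7 RPM in Con, 55.7, 66.3 and 54.1 in HMD, and 51.8, 52.9 and 56.4 in Bet+HMD. Every Bet+HMD library thus lay below every Con library (a difference of -20.9% between the means), whereas HMD overlapped both. The beta cluster gave 178, 185 and 154 in Con, 150.0, 174 and 152 in HMD, and 169, 177 and 187 in Bet+HMD, which overlapped throughout. For the gamma cluster the values were 308, 264 and 263 in Con, 269, 257 and 270.2 in HMD, and 298, 305 and 314 in Bet+HMD, with Bet+HMD 15.1% above HMD without overlap and overlapping Con. Most of that difference was 1 gene: Pcdhgc5 gave 57.9 ± 5.66 RPM in HMD and 89.7 ± 1.68 in Bet+HMD, and the gamma sum without it gave 208 ± 9.79 and 216 ± 8.55, which overlapped. A sum over the members carries no p-value here.

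**Figure D3:**
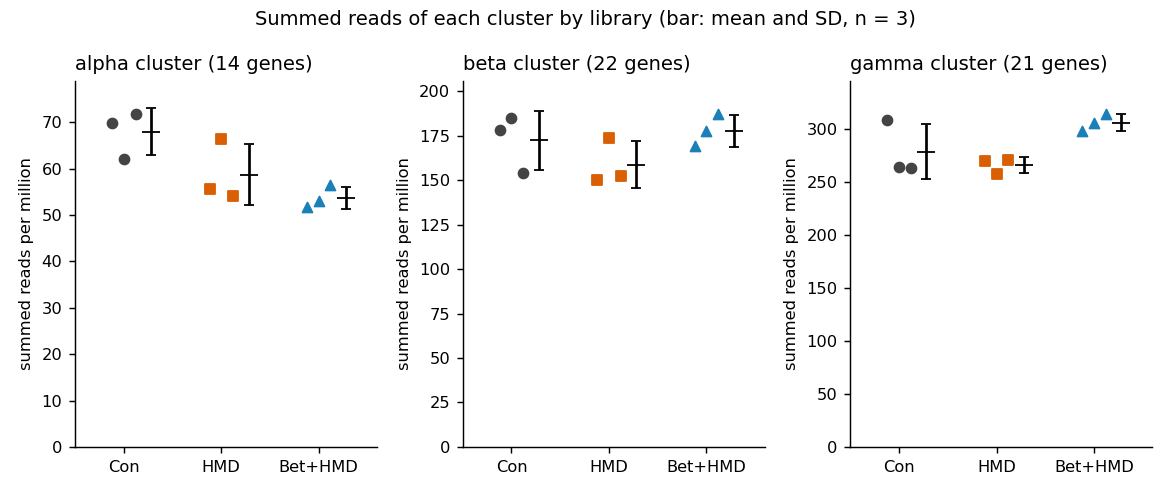
Summed RPM of the alpha, beta and gamma genes in each library, with the mean and SD of 3 libraries per group; axes start at 0. Alpha sums of Bet+HMD (51.8 to 56.4) lie below those of Con (62.1 to 71.7), while gamma sums of Bet+HMD (298 to 314) lie above those of HMD (257 to 270.2).

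As a share of all member reads, alpha made 13.1 ± 1.35% in Con, 12.1 ± 1.06% in HMD and 9.997 ± 0.124% in Bet+HMD. The beta share was 33.2 ± 2.604, 32.8 ± 1.85 and 33.1 ± 0.484% in the same order, and the gamma share 53.6 ± 1.91, 55.0 ± 2.88 and 56.9 ± 0.560%. Alpha shares of the Bet+HMD libraries (9.88 to 10.1%) lay below all those of Con and HMD (11.3 to 14.7%). This comparison is within a library, so it does not depend on library size.

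The comparison of HMD with Con asked what the methionine diet alone changed. No member passed the test: limma on log2(FPKM + 0.1) called 0 of 52 members, and 0% of the 16040 genes tested, at a Benjamini-Hochberg adjusted p under 0.05. At an unadjusted p under 0.05 there was 1 member, against 4.9% of all genes, and limma voom on the recovered reads also called 0. The groups did not overlap at 5 members (10.2% of all genes did not), each lower in HMD: Pcdha1, Pcdha5, Pcdhac2, Pcdhb2 and Pcdhb17. Median log2 fold changes were -0.15 for alpha, -0.07 for beta and -0.03 for gamma, beside -0.01 for all genes. Single libraries decided the signs of beta and gamma: the beta median was -0.24 without Con replicate 3 and 0.02 without Con replicate 2, and the gamma median -0.12 without Con replicate 3 and 0.05 without Con replicate 1, while alpha ranged from -0.27 to -0.10.

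Pcdhb2 (ENSMUSG00000051599, 37294812 to 37297624), an early gene of the beta cluster, was the 1 member with a small unadjusted p. It read 1.28, 1.95 and 1.56 FPKM in Con, 0.962, 0.882 and 0.526 in HMD, and 1.47, 1.71 and 1.29 in Bet+HMD. All 3 HMD libraries were therefore below the other 6. The log2 fold change of HMD against Con was -0.95 (SE 0.28, unadjusted limma p 0.0086, adjusted p 0.823), on 25 to 89 reads per library. It ranged from -1.09 to -0.71 when single libraries were left out.

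Among C-type genes, Pcdhac2 (ENSMUSG00000102697, 37143503 to 37187657) read 5.85, 5.07 and 6.16 FPKM in Con against 4.56, 4.95 and 4.03 in HMD. These did not overlap, but the log2 fold change of -0.33 (SE 0.15) had an adjusted limma p of 0.972. Pcdhgc5 (ENSMUSG00000102543, 37819513 to 37841873) read 10.98, 7.81 and 10.2 in Con and 6.84, 8.10 and 8.21 in HMD, a difference of -0.31 on the log2 scale that overlapped and did not pass. In the other direction the members of each cluster with the smallest p were Pcdha9 (log2 fold change 0.23), Pcdhb8 (0.30) and Pcdhga3 (0.27), all with an adjusted p of 0.972.

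Against HMD, the Bet+HMD libraries asked whether betaine altered the state under the diet. Here 5 of 52 members were called, 4 higher and 1 lower, while 44.3% of the 16846 genes tested were called (23% higher, 21.3% lower). Groups did not overlap at 14 tested members, 7 in each direction, against 57.2% of all genes. Both shares of members lie under those of all genes. The median standard error of a member was 0.19 on the log2 scale and that of all genes 0.16.

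Pcdhgc5 gave the smallest p. It read 11.4, 10.98 and 11.3 FPKM in Bet+HMD against 6.84, 8.10 and 8.21 in HMD, on 906 to 1513 reads per library, and the 2 groups were far apart. It rose by a log2 fold change of 0.54 (SE 0.10, limma adjusted p 0.00319) and kept the call under all 16 alternatives. Its share of the gamma sum was 12.1 ± 1.37% in HMD and 17.3 ± 0.713% in Bet+HMD, and Con lay between them at 15.1 ± 3.02%. The C-type neighbours Pcdhgc3 and Pcdhgc4 read -0.08 and -0.11 in the same comparison (adjusted p 0.605 and 0.59), and both overlapped.

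Another pair of gamma genes, of the A type, rose beside it. Pcdhga2 (ENSMUSG00000103332, 37668953 to 37841870) read 1.71, 1.91 and 1.65 FPKM in HMD and 2.38, 2.63 and 2.74 in Bet+HMD, a log2 fold change of 0.53 (SE 0.14, adjusted limma p 0.0172). Pcdhga9 (ENSMUSG00000102440, 37736936 to 37841870) read 1.08, 0.864 and 0.965 in HMD and 1.49, 1.61 and 1.501 in Bet+HMD (0.62, SE 0.17, adjusted p 0.0195). In both genes every Bet+HMD library exceeded every HMD library. The call on Pcdhga2 was lost without Bet+HMD replicate 2 or 3 (adjusted p 0.0673 and 0.0733), and that on Pcdhga9 without any 1 of the Bet+HMD libraries (0.061 to 0.0784). Quantile normalization lost both (log2 fold changes 0.31 and 0.29, adjusted p 0.115 and 0.18), and the fit with no filter lost Pcdhga9 (0.0525).

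Pcdhb2 rose from HMD to Bet+HMD by 0.87 (SE 0.25, adjusted limma p 0.0236), to values that overlapped those of Con (log2 fold change against Con -0.08, adjusted p 0.776). This comparison shares its HMD libraries with that of HMD against Con, so the low HMD values enter both. The call was lost without Bet+HMD replicate 1 or 2 (adjusted p 0.0686 and 0.0889), with no filter (0.0641) and under quantile normalization (0.51, adjusted p 0.117). Pcdha12 (ENSMUSG00000103310, 37020149 to 37187657), the strongest alpha gene outside the C-types, read 0.755, 1.57 and 1.12 FPKM in HMD and 0.550, 0.636 and 0.571 in Bet+HMD. It fell by 0.81 (SE 0.27, adjusted p 0.0401) on 51 to 128 reads, with no overlap, and only the fit without HMD replicate 1 kept the call of the 6 that left out 1 library. It was also lost with no filter and under TPM (adjusted p 0.11 and 0.0913).

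**Figure D4:**
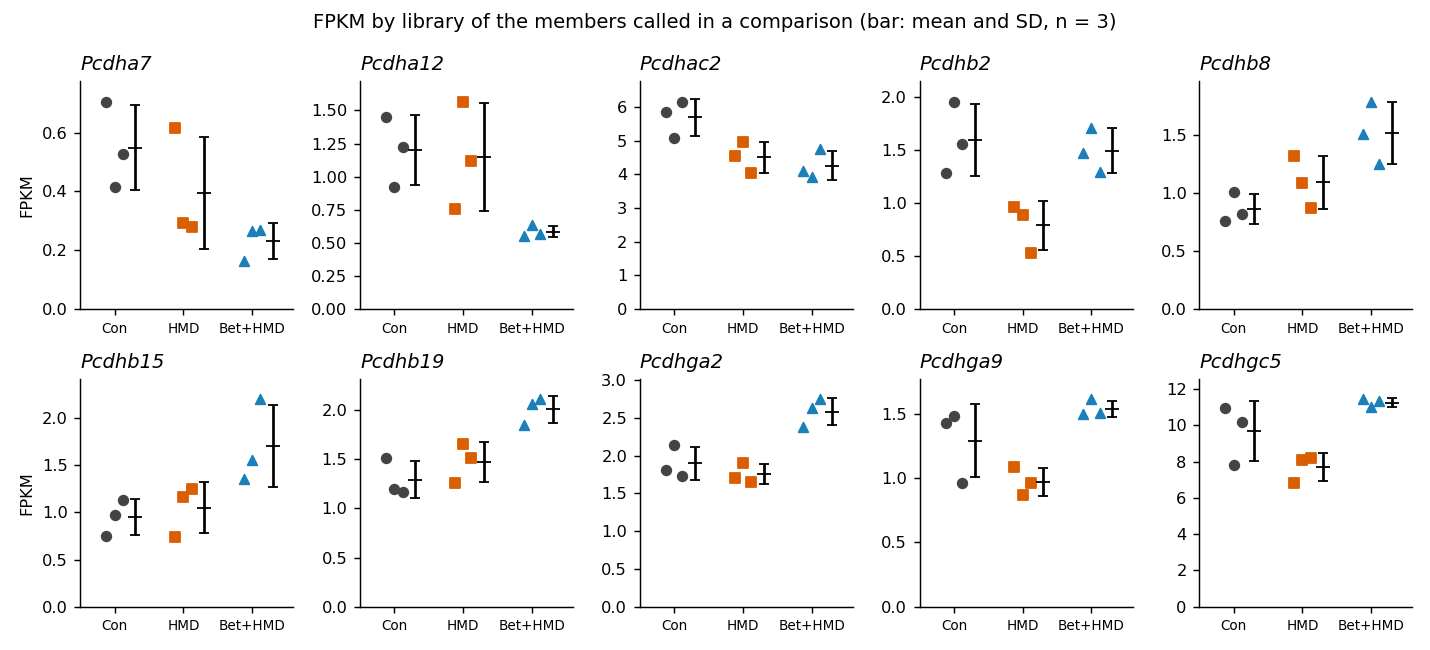
FPKM in each library, with the mean and SD of 3, for the 10 members called in a comparison with Bet+HMD; each axis starts at 0 and has its own scale. Pcdha7, Pcdha12 and Pcdhac2 have their lowest mean in Bet+HMD, while Pcdhb8, Pcdhb15, Pcdhb19, Pcdhga2, Pcdhga9 and Pcdhgc5 have their highest mean there.

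By cluster, median log2 fold changes of Bet+HMD against HMD were -0.28 for alpha, 0.07 for beta and 0.00 for gamma as deposited, beside 0.02 for all genes. Of 11 alpha members 8 were below 0, of 21 beta members 8 and of 20 gamma members 10. Rescaling to TPM lifted the median of all genes to 0.22 and those of alpha, beta and gamma to -0.13, 0.27 and 0.19, and quantile normalization put them at -0.81, -0.20 and -0.32 beside -0.06, so that the sign of the beta median reversed under quantile normalization and that of gamma under TPM. Relative to the median of all genes, alpha was lower under each of the 10 alternative settings, by 0.05 to 0.76. The 0.05 came from a mean FPKM of at least 1, where Pcdhac2 was the only alpha gene tested. A shared fit of all 3 groups, the replicate block and protein-coding genes alone left the alpha median at -0.28 and could not change it. Without HMD replicate 2, however, the alpha median was -0.01 and its difference from all genes -0.03, against -0.30 with all libraries. The split of called members was 7 higher and 0 lower under TPM, and 1 higher and 11 lower under quantile normalization.

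**Figure D5:**
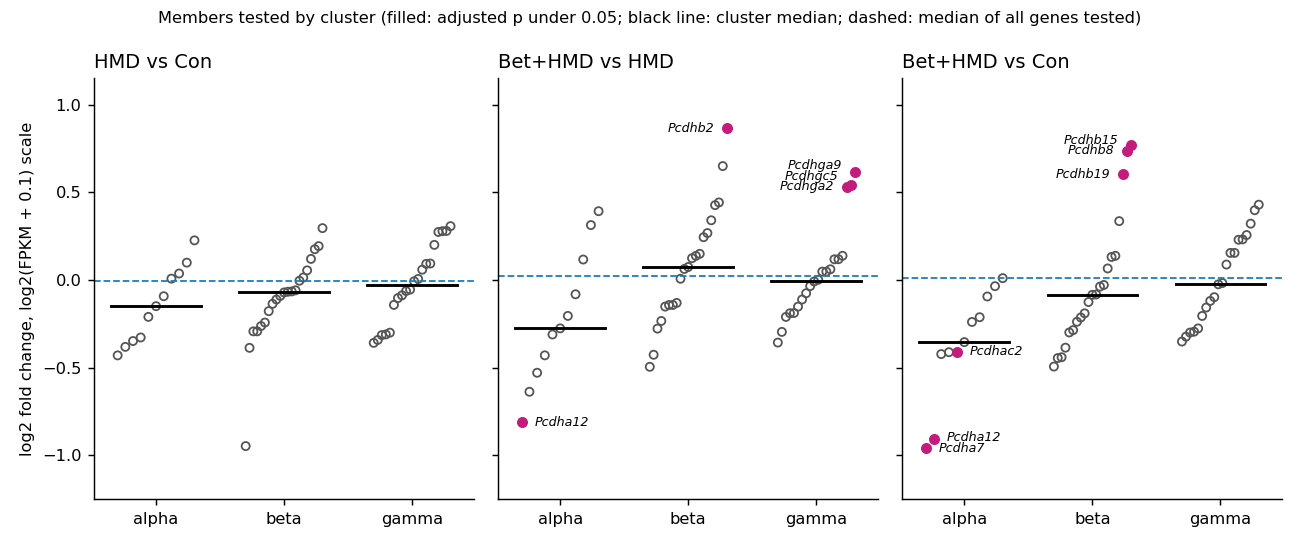
Log2 fold change of each tested member on the log2(FPKM + 0.1) scale, by cluster, for the 3 comparisons; filled points passed an adjusted p under 0.05, black lines are cluster medians and the dashed line is the median of all genes tested. No point is filled for HMD against Con, and the alpha medians lie at -0.15, -0.28 and -0.36 from left to right.

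The last comparison, Bet+HMD with Con, set the betaine group beside mice on a standard diet, and it shares libraries with both comparisons above. It called 6 of 52 members, 3 higher and 3 lower, where 37.1% of 16868 genes were called (20% higher, 17.1% lower). Groups did not overlap at 13 members, 8 higher and 5 lower, against 53% of all genes. Every lower call was an alpha gene and every higher call a beta gene, in counts too small to set the clusters apart. No gamma gene was called by limma (3 at an unadjusted p under 0.05, a threshold that 47.2% of all genes passed, and 1, Pcdhga2, by limma voom).

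Among the alpha genes, Pcdha12 fell by 0.91 (SE 0.21, adjusted limma p 0.0138), from 1.45, 0.925 and 1.23 FPKM in Con, with no overlap. That call was lost without Bet+HMD replicate 1 or 3 (adjusted p 0.0536 and 0.0524). Pcdha7 (ENSMUSG00000104318, 36973802 to 37187657), a middle gene of the array, read 0.704, 0.416 and 0.526 in Con and 0.162, 0.265 and 0.269 in Bet+HMD. It fell by 0.96 (SE 0.26, adjusted p 0.0267) on only 15 to 68 reads, and part of its exon lies under the read-through gene Gm37388. Pcdhac2 read 4.09, 3.94 and 4.75 in Bet+HMD and fell by 0.41 against Con (SE 0.13, adjusted p 0.0413). Pcdha7 and Pcdhac2 were not called without Con replicate 1 or without any 1 Bet+HMD library, and Pcdhac2 not without Con replicate 3 either (adjusted p 0.0579 to 0.148 for Pcdhac2 and 0.0608 to 0.0938 for Pcdha7 in those fits). With no filter and under TPM neither gene was called, and TPM gave -0.20 for Pcdhac2 (adjusted p 0.324) and -0.95 for Pcdha7 (0.0653).

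In the beta cluster, Pcdhb8 (ENSMUSG00000045876, 37355121 to 37358604) read 0.762, 1.01 and 0.822 FPKM in Con, 1.32, 1.09 and 0.867 in HMD and 1.504, 1.78 and 1.25 in Bet+HMD. It rose against Con by 0.74 (SE 0.20, adjusted limma p 0.0235). Pcdhb19 (ENSMUSG00000043313, 37496991 to 37504128) read 1.51, 1.20 and 1.17 in Con and 1.85, 2.07 and 2.11 in Bet+HMD, a rise of 0.60 (SE 0.16, adjusted p 0.0243) on 139 to 262 reads. Pcdhb15 (ENSMUSG00000047033, 37473540 to 37476340) read 0.750, 0.969 and 1.13 in Con and 1.36, 1.55 and 2.19 in Bet+HMD (0.77, SE 0.23, adjusted p 0.0374). All 3 did not overlap between Bet+HMD and Con. The calls were lost without Con replicate 1 for Pcdhb8 and Pcdhb15 (adjusted p 0.0638 and 0.1), without Con replicate 2 for Pcdhb15 (0.0595), and without at least 2 of the Bet+HMD libraries in each of the 3 genes (0.0585 to 0.129). None of the 3 was called with no filter (0.0533 to 0.0838) or under quantile normalization (log2 fold changes 0.34 to 0.45, adjusted p 0.151 to 0.164), nor Pcdhb15 with a mean FPKM of at least 1 (0.0529).

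Of the gamma genes, Pcdhga2 had the smallest p among those higher in Bet+HMD than in Con (log2 fold change 0.43, adjusted p 0.053, no overlap) and Pcdhgb6 the smallest among those lower (-0.35, adjusted p 0.121, overlapping). Pcdhgc5 FPKM was above Con in every Bet+HMD library, but the lowest of these and the highest Con library were equal as rounded here. The log2 difference was 0.23, with an adjusted limma p of 0.22. The leading beta genes Pcdhb9, Pcdhb17 and Pcdhb20 read -0.21, -0.13 and 0.14 against Con (adjusted p 0.257 to 0.511), and Pcdhgc3 read -0.02.

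Cluster medians against Con were -0.36 for alpha, -0.09 for beta and -0.02 for gamma, beside 0.01 for all genes. TPM moved the median of all genes to 0.23 and those of the clusters to -0.19, 0.13 and 0.20, which reversed the sign for beta and gamma, while quantile normalization put them at -0.79, -0.32 and -0.26. Alpha stayed below the median of all genes, by 0.15 to 0.74, under each of the 10 settings, and by 0.27 to 0.37 without any 1 library. Pcdhac2 was again the only alpha gene tested at a mean FPKM of at least 1. The shared fit, the replicate block and protein-coding genes alone could not change the alpha median of -0.36. The gamma median turned from -0.02 to 0.10 without Con replicate 1 and to -0.17 without Con replicate 3, and the beta median was -0.21 without the latter. Called members were 6 higher and 1 lower under TPM and 0 higher and 12 lower under quantile normalization. Protein-coding genes with 1 exon, the structure of the beta genes, had medians of -0.31 against HMD and -0.38 against Con over 337 and 336 genes, beside 0.07 and -0.09 for beta.

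The partners of the clustered protocadherins were followed in 4 lists of 67 genes, of which 66 were tested: 17 nonclustered protocadherins and large cadherins, 23 genes of promoter choice and chromatin, 20 signalling partners and 6 genes of proteolytic cleavage. HMD against Con called 0 of 66 by limma or limma voom. The genes with the smallest p were Fat4, Stag1, Ret and Psenen (log2 fold changes -0.36, 0.32, 1.01 and -0.46, adjusted p 0.705 to 0.972). Ret, a receptor tyrosine kinase that forms complexes with protocadherins, read 0.441 to 0.602 FPKM in Con and 0.984 to 1.33 in HMD without overlap. In Bet+HMD it read 0.560 to 0.739 (limma adjusted p 0.0156 against HMD). Both comparisons use the same HMD libraries, so the high HMD values for which Ret was named enter both.

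Bet+HMD against HMD called 24 of 66 partners, 12 in each direction, and against Con 19 of 66, 11 higher and 8 lower. These shares, 36.4 and 28.8%, lie under the 44.3 and 37.1% of all genes. In the chromatin list 8 genes rose and 1 fell against HMD, and 8 rose and 0 fell against Con. In both directions together 39.1 and 34.8% of its 23 genes were called, below the shares of all genes as well. Higher calls alone made 34.8% of the list in each comparison, above the 23 and 20% of all genes called higher. Whether the list differs from all genes in direction was not tested. Setdb1, the histone H3 lysine methyltransferase that acts at this locus, read 3.796 to 5.34 FPKM in HMD, 4.64 to 5.41 in Con and 8.12 to 8.50 in Bet+HMD (log2 fold change 0.88 and 0.69, adjusted p 0.00149 and 0.00235). Zfp143, a zinc finger protein bound with CTCF at promoters, rose by 0.99 and 0.68, and the DNA methyltransferase Dnmt3a by 0.61 and 0.67. Dnmt3b, the methyltransferase of protocadherin promoters, rose by 1.07 against HMD from a mean of 0.0902 FPKM, and Stag2, a cohesin subunit, fell by 0.34. Ctcf itself overlapped in all comparisons (17.3 ± 0.886 FPKM in Con, 17.7 ± 1.58 in HMD, 17.2 ± 1.09 in Bet+HMD), with log2 differences of -0.04 and -0.01 for Bet+HMD.

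Of all genes tested, 21.3% were called lower against HMD and 17.1% against Con, and 23 and 20% higher. Of the signalling partners 8 fell and 0 rose against HMD, and 5 fell and 0 rose against Con. These falls were 40% and 25% of 20 genes, beside 44.3 and 37.1% of all genes called in either direction. They included Nckap1 and Wasf1, subunits of the WAVE complex that the cytoplasmic ends recruit: Nckap1 read 209 to 290.0 FPKM in HMD and 131 to 141 in Bet+HMD (-0.78, adjusted p 0.00255), and Wasf1 fell by 0.78 and 0.62 against HMD and Con. Brk1, another subunit, fell by 0.75 against Con. Among nonclustered relatives, Celsr3, a large cadherin of axon guidance, rose from 3.74 to 4.26 FPKM in HMD to 15.6 to 16.6 (2.00, adjusted p 1.43e-05), more than any clustered member. Pcdh15 and Fat3 also rose (1.43 and 0.83), while Pcdh8, an activity-regulated protocadherin of synapses, and Pcdh20 fell (-0.93 and -0.53). Psenen, a gamma-secretase subunit, was the 1 cleavage gene called, and fell by 0.51 and 0.97. Neuron markers fell in 5 of 8 and rose in 1 of 8 genes between HMD and Bet+HMD, where 44.3% of all genes were called, with summed levels of 1026 to 1195 and 895 to 898 FPKM. Lower calls without a higher one were also made for 2 of 6 astrocyte markers (sums of 282 to 295 and 241 to 243 FPKM), 3 of 6 oligodendrocyte markers (752 to 1012 and 732 to 739), 2 of 5 microglia markers (49.5 to 56.0 and 46.6 to 47.9) and 1 of 4 endothelium markers (37.1 to 38.4 and 32.5 to 34.2). Thalamus markers had 4 of 7 lower and 0 higher (57.1%, sums of 45.4 to 94.9 and 26.7 to 28.1 FPKM). Hippocampus markers had 1 of 8 lower and 0 higher (sums of 157 to 188 and 175 to 183 FPKM). The part of these differences in the partner and member values was not tested.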

How the data were processed

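The authors depleted ribosomal RNA, made stranded libraries, aligned reads with HISAT2 and counted them with featureCounts. The submitters' processing notes give HISAT2 2.1.0, featureCounts 1.5.0-p3 and mm10, and the study's methods name later versions. The authors deposited FPKM per gene in 2 tables, and the later one, which held all 9 libraries, was used. Gene lengths, an additional deposited column in bases, were taken over as they stand. All 57 members matched GENCODE M21 (GRCm38) in position and length. Multiplying FPKM by gene length and a library size fitted for each library to give whole reads did so for 100% of values (tolerance 0.001). The fitted size was 0.953 to 1.05 times the assigned reads. FPKM therefore scales the libraries otherwise than RPM and the sole-exon level, which use assigned reads. The study's methods use a count tool. Because FPKM are not counts, limma (3.58.1, R 4.3.3; empirical Bayes with trend) was run on log2(FPKM + 0.1), for each pair of groups separately, over genes with a mean of at least 10 recovered reads. This scale understates the change of low genes. p-values are two-sided and Benjamini-Hochberg adjusted over all genes tested, with a threshold of 0.05. The fit was tested on simulated data.

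Groups came from the sample titles, and the columns with the prefix COL were taken as Con by elimination. Depth was 16031464 to 18291952 reads per library, and 3 reads, the floor, were at most 1.87e-05% of a library. This floor covers counting error only. Genes named were the 5 C-type genes, the 3 members of each cluster with the highest mean FPKM, and in each comparison up to 3 rises and 3 falls per cluster and partner list among those called, or else those with the smallest p. The genes without overlap, those at the floor, Pcdha6, Dnmt3a, Ctcf and the overlapping genes were named after their values were seen. The members, lists and tests were chosen with earlier results of these data known. Same-numbered replicates were checked for pairing by the correlation of their deviations from the group means across genes. Alternatives were a pseudocount of 1 FPKM, no filter or a mean of at least 1 FPKM, TPM, quantile normalization, median ratio centring, limma voom with recovered reads, a shared fit of all 3 groups, a fit restricted to protein-coding genes, the earlier table, the replicate number as a block, other denominators for cluster sums, and leaving out each library.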

Additional observations from a re-analysis of the deposited data

How the results depend on the processing

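HMD against Con called 0 members and 0 partners under each alternative, the earlier table and the fits without 1 library included. Called members of Bet+HMD against HMD numbered 1 alpha, 1 beta and 3 gamma, and of Bet+HMD against Con 3 alpha, 3 beta and 0 gamma. For Bet+HMD against HMD, alpha calls were 0 with a mean FPKM of at least 1, with no filter and with TPM, 5 with quantile normalization and 2 with limma voom, and beta calls were 0 with no filter, 4 with TPM and 3 with quantile normalization or limma voom. For Bet+HMD against Con, alpha calls were 1 with a mean FPKM of at least 1, no filter or TPM and 7 with quantile normalization, and beta calls were 0 with no filter. Gamma calls there were 1 with a pseudocount of 1 FPKM, a mean FPKM of at least 1, all 3 groups in one fit, limma voom or protein-coding genes alone, 3 with TPM and 2 with quantile normalization. The filter sets which genes are tested and which share the adjustment. At a mean FPKM of at least 1, the test covered 36 members against HMD and 37 against Con. Pcdha12 and Pcdha7 were not among them, so the alpha counts at that filter do not speak to their calls. The cause of the other changes was not tested. Leaving out 1 library gave 0 to 2 alpha, 0 to 3 beta, 1 to 3 gamma and 15 to 27 partner calls for Bet+HMD against HMD (1, 1, 3 and 24 with all libraries), and 0 to 3, 0 to 5, 0 to 1 and 11 to 26 for Bet+HMD against Con (3, 3, 0 and 19). Where a group was left with 2 libraries, the fit pooled the spread. The gamma sum of Bet+HMD moved to 317 when reads of protein-coding genes were the denominator and to 292 with the library size fitted from the FPKM. That size was 0.956 to 1.005 times the assigned reads in HMD and 1.04 to 1.05 times in Bet+HMD. With it, the gamma sum of Bet+HMD is therefore less than 15.1% above that of HMD.

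Deviations of same-numbered samples correlated at -0.04, 0.21 and 0.24 for HMD and Con. They correlated at -0.07 to 0.00 for Bet+HMD and HMD, and at -0.13 to -0.05 for Bet+HMD and Con. Samples with unlike numbers were not correlated, so these values cannot settle whether the numbers pair Con and HMD samples. With the replicate block, Bet+HMD against HMD called 1 alpha, 2 beta and 2 gamma members and 21 partners, and Bet+HMD against Con 1 alpha, 2 beta and 0 gamma members and 15 partners. The block ended the calls on Pcdhga9 against HMD (adjusted p 0.0559) and on Pcdhac2, Pcdha7 and Pcdhb19 against Con (0.0731, 0.0685 and 0.0741).

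Some members that were not called changed sign. Under TPM, log2 fold changes of Bet+HMD against HMD were 0.12 for Pcdhac2, 0.053 for Pcdhb9, 0.12 for Pcdhgc3 and 0.082 for Pcdhgc4, and against Con 0.092 for Pcdhb17, 0.0026 for Pcdhb9, 0.20 for Pcdhgc3 and 0.10 for Pcdhgc4. Quantile normalization gave -0.0054 for Pcdhb20 and -0.060 for Pcdhga3 against HMD. For HMD against Con, Pcdhgc4 gave 0.014 under TPM, 0.017 under quantile normalization and 0.00097 under limma voom. Without 1 library, HMD against Con ranged from -0.33 to 0.15 for Pcdha12, -0.42 to 0.10 for Pcdhac1, -0.081 to 0.065 for Pcdhb20, -0.063 to 0.21 for Pcdhgc3 and -0.13 to 0.10 for Pcdhgc4. Bet+HMD against HMD ranged from -0.46 to 0.070 for Pcdhac1, -0.053 to 0.22 for Pcdhga3 and -0.18 to 0.0012 for Pcdhgc4, and Bet+HMD against Con from -0.14 to 0.13 for Pcdhgc3. Members with under 100 reads in a library are the least precise.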

Other observations

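Most other genes of the table inside the 3 cluster spans held few reads or none. Pcdhgb8, the polymorphic pseudogene of the gamma cluster, read 0.305 ± 0.0734 FPKM (SD, n = 3) in Con, 0.292 ± 0.0899 in HMD and 0.413 ± 0.0877 in Bet+HMD, and was called in no comparison (adjusted limma p 0.269 to 0.990). A pair of noncoding genes on the opposite strand was called in both comparisons with Bet+HMD, in which 44.3% (against HMD) and 37.1% (against Con) of all genes tested were called. Gm10544 (ENSMUSG00000097430, chromosome 18, 37159854 to 37178522, a processed transcript in the alpha span) read 0.0548 ± 0.0251 FPKM in HMD, 0.0909 ± 0.0413 in Con and 0.363 ± 0.133 in Bet+HMD, with log2 fold changes of 1.56 against HMD and 1.26 against Con (adjusted p 0.00546 and 0.0166). Gm29994 (ENSMUSG00000102713, 37829008 to 37830200, antisense, in the gamma span) read 0.191 ± 0.121, 0.173 ± 0.187 and 1.102 ± 0.346 FPKM in the same order, with changes of 2.08 and 2.36 (adjusted p 0.00287 and 0.0141). Gm10544 held 2 to 12 reads in each Con and HMD library and 23 to 45 in each Bet+HMD library. For Gm29994 these ranges were 0 to 8 and 15 to 29, so the changes of both genes rest on few reads. Since the values behave as counted without strand, reads of the 2 strands cannot be told apart at these genes. These genes were chosen after their values were seen.

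Reads at genes silent in this tissue were also more frequent in the Bet+HMD libraries. The 1093 olfactory receptor genes held 512 to 550 reads per Bet+HMD library, against 289 to 334 in Con and 290 to 370 in HMD, and the 329 vomeronasal receptor genes 236 to 305 against 58 to 107 in Con and HMD. The part of such reads in the values of low members was not tested.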
